A study of Mus musculus with 6 samples.

Results

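The genes described here encode the proteasome, the protease complex that degrades ubiquitin-tagged proteins. They were taken as the rows of the expression table whose symbol starts with Psma, Psmb, Psmc, Psmd, Psme, Psmf or Psmg followed by a number, which gave 47 of 18465 genes. RNA was sequenced from SLAM-LSK cells, a fraction of mouse bone marrow enriched for haematopoietic stem cells that lacks lineage antigens and CD48 and carries Sca1, cKit and CD150. The cells came from C57BL/6 mice of 2 genotypes, with 3 wild-type (WT) libraries and 3 libraries of mice with 1 R751W allele of Mecom, written MecomWT:R751W. Mecom encodes a zinc finger transcription factor needed to maintain stem cells, and the series as a whole sets it against GATA2 in leukaemia and mast cells. The labels give no age or sex, and nothing in them ties each biological replicate to its own mouse. A p-value therefore reflects the variation among these libraries, which may be technical.

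The proteasome has a barrel-shaped core of stacked rings, in which alpha subunits form the gate and beta subunits hold the proteolytic sites. A regulatory particle, made of a base with a ring of ATPases and a lid that removes ubiquitin, sits on the core and feeds proteins into it. In cells of the immune system, and after interferon, the beta subunits Psmb8, Psmb9 and Psmb10 take the place of the constitutive catalytic subunits Psmb5, Psmb6 and Psmb7 and form the immunoproteasome. Haematopoietic stem cells are known for slow protein synthesis and for their sensitivity to misfolded protein.

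By role, the 47 genes were 8 core alpha genes, 7 constitutive core beta genes, the 3 immunoproteasome genes, 6 ATPases and 3 non-ATPases of the base, 8 lid genes, 4 activators, 7 assembly chaperones and the inhibitor Psmf1. The thymus-specific subunit Psmb11 was not analysed here. Levels are in TPM, in which reads are counted per unit of gene length and every library is brought to 1 common sum. All 47 genes exceeded the minimum mean of 1 TPM, with means from 5.31 TPM for Psmd10 to 299 TPM for Psme1 and a median of 41.5 TPM. The reads implied by these values were 49 to 2718 per gene and library, with a median of 504, and the libraries held 10908069 to 12753202 implied reads in all. Protein-coding genes took 25.87% to 30.1% of TPM, lowest in replicate 2 of both genotypes. All 12 stem cell and gate genes checked were listed, with a summed level of 529 to 617 TPM in WT and 473 to 576 TPM in MecomWT:R751W and Kit as the highest. Mecom had 42.9, 34.9 and 36.9 TPM in WT and 50.9, 39.9 and 44 TPM in MecomWT:R751W, and since the row counts both alleles it does not check the genotype.

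Levels of the proteasome genes did not differ detectably between the genotypes. Together they summed to 2360, 1970 and 2180 TPM in WT replicates 1, 2 and 3 and to 2210, 2090 and 2200 TPM in MecomWT:R751W replicates 1, 2 and 3. The means were 2170 ± 195 TPM and 2170 ± 69.4 TPM (SD, n = 3 each), and the groups overlapped. As a share of all protein-coding TPM the same genes took 0.767% ± 0.0163 in WT and 0.769% ± 0.0295 in MecomWT:R751W (SD, n = 3 each). In bulk samples such as these, fewer cells of a type and less RNA per cell cannot be told apart.

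The genotype difference of each gene was tested with limma on log2(TPM + 1) over the 16655 genes whose mean reached 1 TPM, and a log2 fold change is MecomWT:R751W minus WT on that scale. None of the 47 genes passed an adjusted p of 0.05 (Benjamini-Hochberg), and the smallest adjusted p among them was 0.778. The background was as empty, at 0% of all genes in each direction. At an unadjusted p under 0.05, 0 proteasome genes were higher, against 2.74% of all genes, and 2 were lower, Psma3 and Psma8, against 3.23%. With protein-coding genes alone in the fit, 0.351% were called higher and 0.808% lower after adjustment, and 0 of the 47 were among them. At an unadjusted p under 0.05, 0 of the 47 were then higher, against 3.00%, and 3 lower (Psma8, Psma3 and Psmb5), against 4.67%. With limma-voom on the implied reads the adjusted shares were 0.144% and 0.174%, again with 0 of the 47. The unadjusted shares were 4.42% higher, with 0 of the 47, and 4.77% lower, with Psma3 and Psma8. The 47 genes had a median log2 fold change of 0.028, beside -0.0037 for all genes tested, and the central 50% lay between -0.08 and 0.06. Above 0 stood 27 of them (57.4%, beside 49% of all genes tested). Without WT replicate 2, 13 stood above 0 (35.5% of all genes did) and the median was -0.052, while the median of all genes was -0.065.

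The precision of this fit, in which no libraries are paired, bounds what it could have seen. The standard error (SE) of the log2 fold change was 0.12 to 0.25 with a median of 0.14. The 95% interval lay within 0.5 of 0 for 39 of the 47 genes and within 1 for 46, the exception being Psma8. The log2 fold change exceeded its SE in 8 genes, 3 above 0 (Psmb2, Psmd13 and Psmb7) and 5 below (Psma8, Psma3, Psmb5, Psmd9 and Psmf1). Their values are given with their roles, as descriptions of genes that did not pass the test. The SE depends on the scaling of the libraries. With each library divided by a size factor (median of ratios), it was 0.07 for Psmd13 (0.14 here) and 0.1 for Psma3 (0.15 here). For Psmb5 it was 0.2 (0.19 here). No proteasome gene passed the adjusted threshold with that scaling either.

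**Figure D1:**
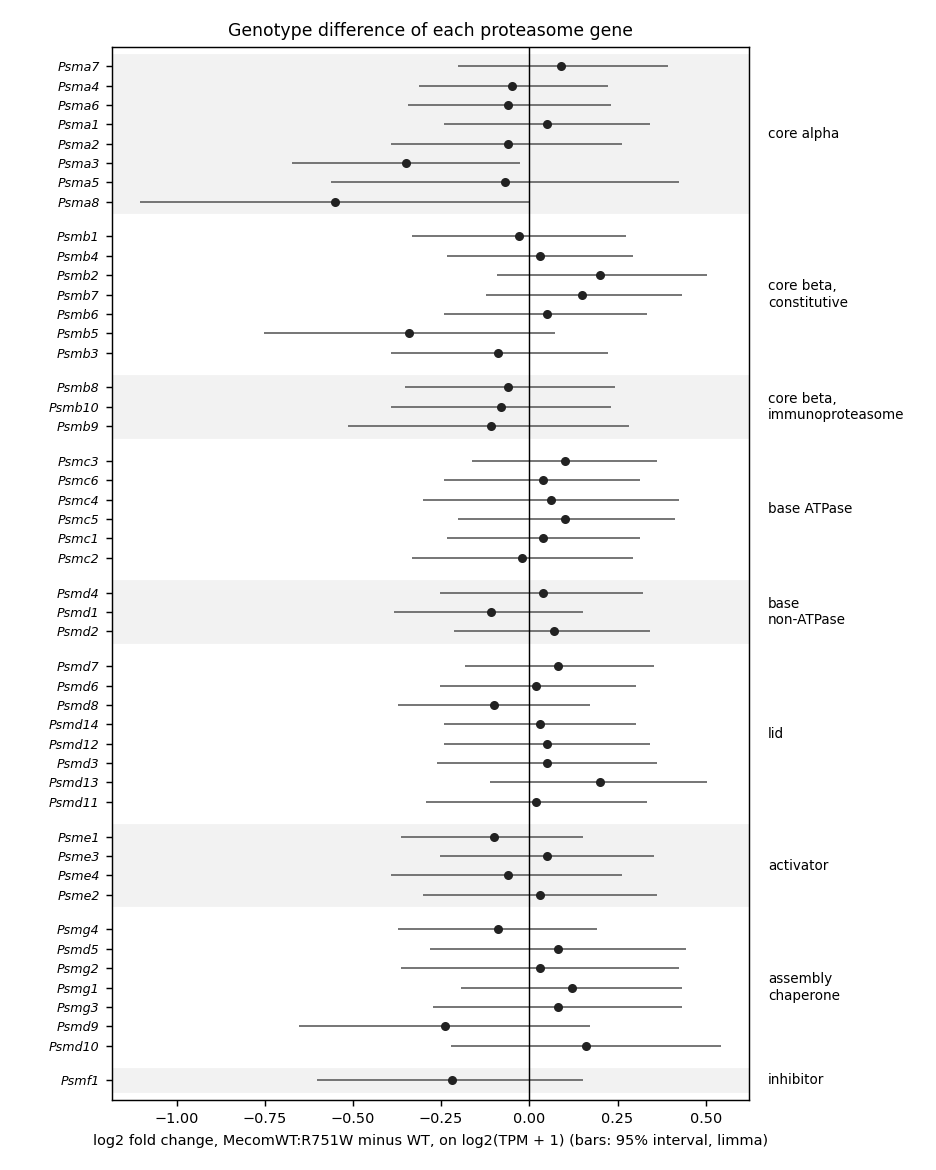
Log2 fold change of each of the 47 proteasome genes, MecomWT:R751W minus WT on the log2(TPM + 1) scale, grouped by role. Points are limma estimates from 3 libraries per genotype and bars are 95% intervals. Most points sit between -0.25 and 0.25, and the largest departures are Psma8 at -0.55, Psma3 at -0.35 and Psmb5 at -0.34.

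The alpha rings hold the gate of the core. The 8 alpha genes summed to 329 ± 31.1 TPM in WT libraries and 325 ± 19.3 TPM in MecomWT:R751W libraries (SD, n = 3 each). Psma7, the highest of them, had 95.4, 70.9 and 84.8 TPM in WT libraries 1, 2 and 3, and 93.1, 80.2 and 93.6 TPM in MecomWT:R751W. These ranges overlapped, and the log2 fold change was 0.09 (SE 0.14).

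Psma3, another ring subunit (chromosome 12, 70969283 to 70995877, GRCm38.p6), stood at 10.9, 11.4 and 11.8 TPM in the WT libraries. In the MecomWT:R751W libraries it stood at 9.13, 8.01 and 8.94 TPM, each below every WT library. The log2 fold change was -0.35 (SE 0.15, unadjusted p = 0.032, limma adjusted p = 0.778), and it ranged from -0.39 to -0.30 when each library was left out. Among all genes tested, 4.70% were lower without overlap between the groups (4.84% of protein-coding genes), and Psma3 was the 1 proteasome gene of this kind. Its row holds a small part of the summed TPM of rows with closely similar sequences, as described with the copies. Psma8, a paralog of Psma7 known from male germ cells, was the lowest alpha gene, at 6.31, 6.86 and 9.26 TPM in WT and 4.33, 7.71 and 3.06 TPM in MecomWT:R751W. Replicate 2 of MecomWT:R751W lay among the WT values. The log2 fold change was -0.55 (SE 0.25, unadjusted p = 0.049), -0.85 without MecomWT:R751W replicate 2 and -0.30 without MecomWT:R751W replicate 3. Psma8 was named after its values were seen. The other 5 alpha genes had log2 fold changes between -0.07 and 0.05.

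**Figure D2:**
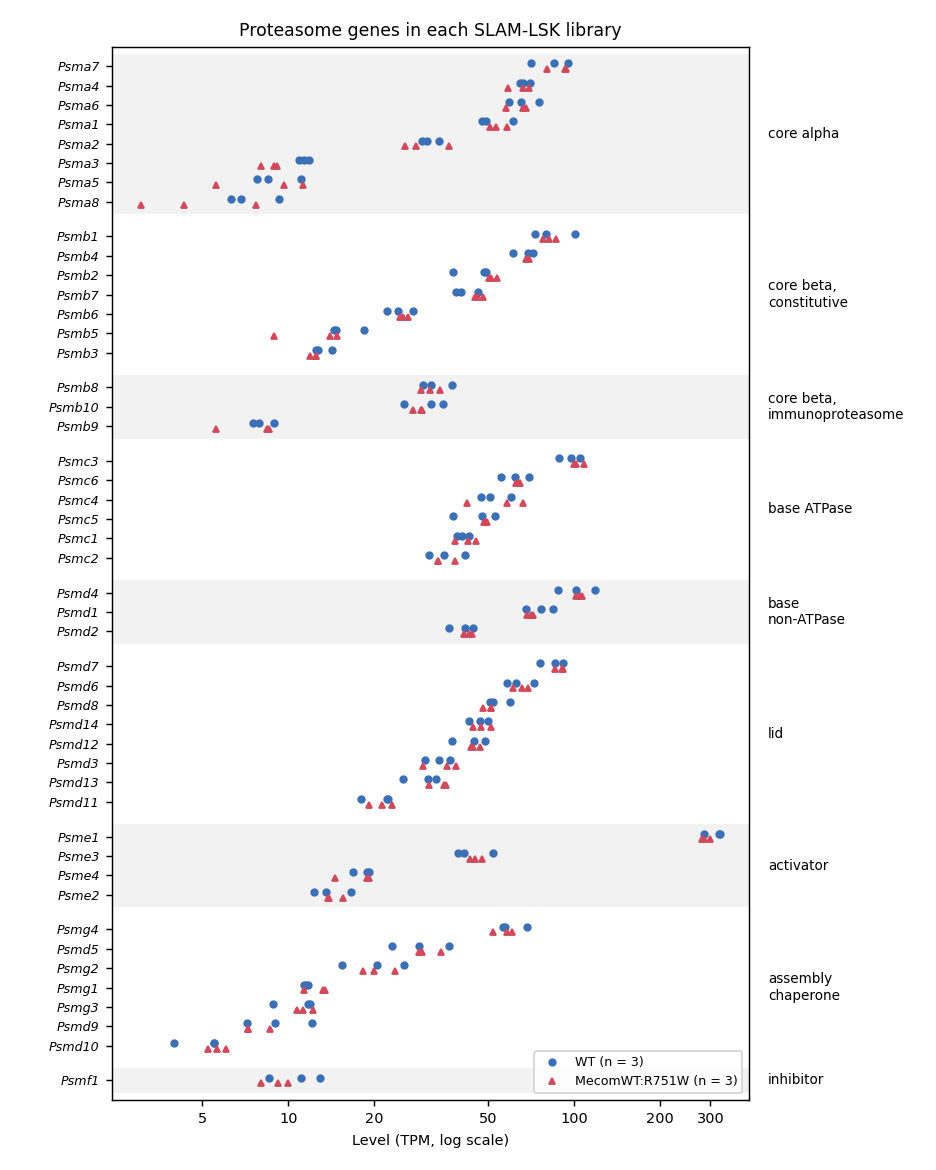
Level of each proteasome gene in every library (TPM, log axis), with circles for the 3 WT and triangles for the 3 MecomWT:R751W libraries, grouped by role. The genotypes interleave in nearly all rows, and the triangles of Psma3 lie left of all its circles while those of Psmb2 lie right of all its circles.

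Of the constitutive beta genes, Psmb1, a structural subunit without a protease site, was the highest, at 101, 73.0 and 80.0 TPM in WT and 86.7, 82.0 and 77.7 TPM in MecomWT:R751W. The log2 fold change was -0.03 (SE 0.14). Psmb2, also structural and named after its values were seen, stood at 48.4, 37.7 and 49.4 TPM in WT and at 53.8, 50.5 and 51.2 TPM in MecomWT:R751W. Each MecomWT:R751W library lay above every WT library, as did 4.50% of all genes tested (4.21% of protein-coding genes), and Psmb2 was the 1 proteasome gene of this kind. Its log2 fold change was 0.20 (SE 0.14) and 0.08 without WT replicate 2, its lowest library.

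The protease sites are formed by pairs of genes that compete for the same place in the ring. At the chymotrypsin-like site, the constitutive Psmb5 (chromosome 14, 54614120 to 54617995) stood at 18.4, 14.5 and 14.7 TPM in WT and 8.91, 14 and 14.8 TPM in MecomWT:R751W. Replicate 1 of MecomWT:R751W was low and the others lay among the WT values. The log2 fold change was -0.34 (SE 0.19, limma adjusted p = 0.940), and -0.13 without that library. Its immunoproteasome counterpart Psmb8 (chromosome 17, 34198195 to 34201454) stood at 37.5, 31.5 and 29.7 TPM in WT and 31.4, 29.1 and 34.0 TPM in MecomWT:R751W, with a log2 fold change of -0.06 (SE 0.14).

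At the caspase-like site, Psmb6 stood at 27.4, 22.2 and 24.3 TPM in WT and 25.3, 24.6 and 26.3 TPM in MecomWT:R751W. Its counterpart Psmb9, a neighbour of Psmb8 on chromosome 17 (34182030 to 34187330), stood at 7.92, 7.51 and 8.92 TPM in WT and 8.59, 5.58 and 8.40 TPM in MecomWT:R751W. The log2 fold changes were 0.05 (SE 0.13) and -0.11 (SE 0.18), and both pairs of groups overlapped. At the trypsin-like site, Psmb7 stood at 46.2, 38.8 and 40.2 TPM in WT and 48.0, 46.2 and 45.1 TPM in MecomWT:R751W. Psmb10 stood at 34.9, 31.6 and 25.4 TPM in WT and 27.4, 29.2 and 29.4 TPM in MecomWT:R751W. The log2 fold changes were 0.15 (SE 0.12) and -0.08 (SE 0.14), again with overlapping groups.

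The immunoproteasome genes were thus well represented in WT and MecomWT:R751W cells alike. They made up 46.6%, 48.3% and 44.7% of the TPM of the 6 catalytic genes in WT and 45.0%, 43.0% and 45.5% in MecomWT:R751W. The means were 46.5% ± 1.83 and 44.5% ± 1.31 (SD, n = 3 each), a difference of -2.03 percentage points with overlapping groups and no test. The balance differed between the sites. In WT the ratio of the immunoproteasome to the constitutive gene was 2.08 ± 0.0827 at the chymotrypsin-like site, 0.331 ± 0.039 at the caspase-like site and 0.734 ± 0.0935 at the trypsin-like site. In MecomWT:R751W the ratios were 2.64 ± 0.772, 0.295 ± 0.060 and 0.619 ± 0.0424 (SD, n = 3 each). The first of these came to 3.52 in replicate 1, where Psmb5 was low, and to 2.09 and 2.31 in the others.

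These ratios depend on the gene length used. The lengths implied by the TPM values were 4892 bp for Psmb8, 3485 bp for Psmb9 and 2125 bp for Psmb6, against principal transcripts of 1628, 1352 and 798 bp. For Psmb5, Psmb7 and Psmb10 they were 871, 1057 and 1270 bp, close to the 899, 1160 and 1311 bp of the principal transcripts. Dividing the implied reads by the principal transcript instead, a choice made after seeing the data, gave Psmb8 to Psmb5 ratios of 6.44 ± 0.256 in WT and 8.18 ± 2.40 in MecomWT:R751W (SD, n = 3 each). The immunoproteasome share then came to 55.7% ± 1.48 and 53.7% ± 1.63, which keeps the difference at -1.96 percentage points. The ratios and shares also count Psmb5 without its near-identical copy Gm3375, which is described with the copies. The Psmb5 row held 68.8% of the TPM of both rows. Their sum was 25.2, 19.6 and 20.3 TPM in WT and 15.2, 21 and 22.6 TPM in MecomWT:R751W. The Psmb8 to Psmb5 ratio is therefore uncertain in level and in its genotype difference.

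**Figure D3:**
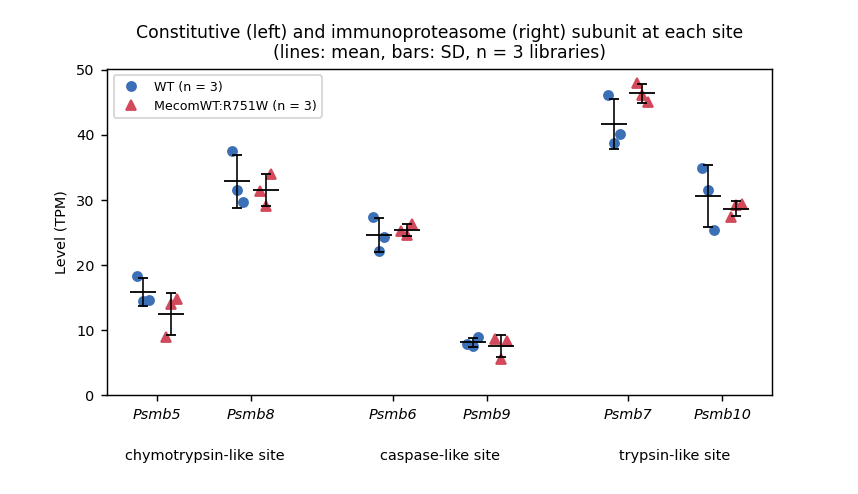
Level of the 6 catalytic beta genes (TPM) in the 3 WT and 3 MecomWT:R751W libraries, with the constitutive and the immunoproteasome gene of each site side by side. Horizontal lines are means and bars SDs. Psmb8 lies above Psmb5, while Psmb9 lies below Psmb6 and Psmb10 below Psmb7, in every library.

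Stretches upstream of the genes of both kinds are shown because these kinds are known to answer to different factors. Each stretch was chosen because it holds a match, so the choice cannot show a division between the kinds. NRF1, the product of Nfe2l1, binds antioxidant response elements with a small MAF protein and drives constitutive proteasome genes. Interferon factors of the IRF and STAT families drive the immunoproteasome. Promoter windows from RefSeq (GRCm38.p6, 250 bases before to 50 after the start site) were found for 39 of the 47 genes and searched on both strands. In each line capitals mark the match and the sequence runs along the strand of the gene.
Psmb5, chr14:54618008-54618067, minus strand: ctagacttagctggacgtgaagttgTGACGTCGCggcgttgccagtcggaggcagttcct
Psmb6, chr11:70525327-70525356, plus strand: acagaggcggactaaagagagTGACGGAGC
Psmb8, chr17:34198073-34198132, plus strand: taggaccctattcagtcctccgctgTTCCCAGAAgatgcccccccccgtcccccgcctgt
Psme1, chr14:55578494-55578523, plus strand: gagctgtgcTTTCGCTTTCccttcccgctg

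A gene was counted as matched where any of its windows held the motif. The antioxidant response core TGACNNNGC was found in 6 of the 39 genes (15.4%), namely Psmb5, Psmb6, Psmc6, Psmd9, Psmd12 and Psme4. Beside this stood 12.4% of all 32851 RefSeq promoter windows searched, a share of windows. By gene it was 16.9% of 10148 protein-coding genes with a row in the expression table. The other motifs have these 2 shares in the same order. The antioxidant response core began 47 bases before the start site of Psmb5 and 9 before that of Psmb6, where the stretch shown already lies within the annotated gene. The response element of interferon regulatory factors was read as GAAA, any 2 bases and GAAA. It was found in 5 genes (12.8%, beside 3.4% and 3.7%), none of them an immunoproteasome gene. These were Psmb3, Psmd4, Psmd9, Psmg4 and Psme1. In Psme1 it is on the opposite strand within the first transcribed bases. The STAT motif TTCNNNGAA was found in 3 genes (7.7%, beside 8.3% in both), Psmd2, Psmg1 and Psmb8. In Psmb8 it began 97 bases before the start site. CCAAT, the box bound by NF-Y, was found in 13 (33.3%, beside 37.4% and 43.5%). A match is a description of the letters only, and Psmb5, Psmb6, Psmb8 and Psme1 had log2 fold changes of -0.34, 0.05, -0.06 and -0.10.

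In the base of the regulatory particle, the 6 ATPases unfold proteins and open the gate. They summed to 335 ± 30.7 TPM in WT libraries and 349 ± 14.9 TPM in MecomWT:R751W libraries (SD, n = 3 each), with log2 fold changes from -0.02 to 0.10. Psmc3, the highest, stood at 97.4, 88.4 and 105 TPM in WT and 108, 102 and 100 TPM in MecomWT:R751W, a log2 fold change of 0.10 (SE 0.12). Among the non-ATPases, the ubiquitin receptor Psmd4 was the highest, at 118, 87.9 and 102 TPM in WT and 105, 107 and 102 TPM in MecomWT:R751W, a log2 fold change of 0.04 (SE 0.13). The scaffold Psmd1 stood at 84.5, 67.9 and 76.9 TPM in WT and 68.3, 70.7 and 71.7 TPM in MecomWT:R751W, a log2 fold change of -0.11 (SE 0.12). The groups overlapped for each.

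The lid carries the deubiquitinase Psmd14, whose mean was 46.6 ± 3.47 TPM in WT and 47.5 ± 3.49 TPM with the R751W allele (SD, n = 3 each). Its partner Psmd7, the highest lid gene, stood at 91.2, 75.9 and 85.7 TPM in WT and 90.5, 91.2 and 85.6 TPM in MecomWT:R751W, a log2 fold change of 0.08 (SE 0.12). Psmd13, a structural lid subunit, stood at 32.8, 25.3 and 30.9 TPM in WT and 35.8, 31.2 and 35.0 TPM in MecomWT:R751W. Its log2 fold change was 0.20 (SE 0.14) and 0.09 without WT replicate 2, the library with the lowest value. Of the 17 genes of base and lid, 14 had log2 fold changes above 0 (49% of all genes did), with a median of 0.04. Without WT replicate 2, 5 of the 17 stood above 0 (35.5% of all genes) and the median was -0.03 (-0.065 for all genes). The 14 constitutive core genes, Psma8 left out, had 6 above 0 and a median of -0.04, and 3 above 0 without WT replicate 2. Whether base and lid differed from the core in this was not tested.

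The activators are caps that can replace the regulatory particle. Psme1, which forms the interferon-inducible cap together with Psme2, was the highest proteasome gene (chromosome 14, 55578494 to 55581527). It stood at 322, 285 and 324 TPM in WT and 285, 280 and 299 TPM in MecomWT:R751W, a log2 fold change of -0.10 (SE 0.12). Psme2 (chromosome 14, 55587440 to 55591101) stood at 12.3, 16.6 and 13.6 TPM in WT and 15.5, 13.9 and 13.8 TPM in MecomWT:R751W, a log2 fold change of 0.03 (SE 0.15). The partners of 1 complex thus stood far apart in level in every library. Psme2 is among the genes with a near-identical copy, and Psme1 is not.

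Psme3, which forms a nuclear cap on its own, stood at 52.0, 39.4 and 41.1 TPM in WT and 47.8, 43.4 and 45.1 TPM in MecomWT:R751W, a log2 fold change of 0.05 (SE 0.14). Psme4, a large single-chain activator, stood at 18.9, 16.8 and 19.2 TPM in WT and 18.8, 14.6 and 19.2 TPM in MecomWT:R751W, a log2 fold change of -0.06 (SE 0.15). For all 4 activators the groups overlapped.

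Assembly chaperones bring the rings and the base together and then leave. Psmg4, the highest, stood at 56.5, 57.3 and 68.7 TPM in WT and 58.3, 52.1 and 60.6 TPM in MecomWT:R751W, a log2 fold change of -0.09 (SE 0.13). Psmd9, a chaperone of the base, stood at 12.1, 7.18 and 8.98 TPM in WT and 8.61, 7.26 and 7.25 TPM in MecomWT:R751W. Replicate 1 was the high WT library, and the log2 fold change was -0.24 (SE 0.19) with it and -0.06 without it. The other 5 chaperones, Psmg1, Psmg2, Psmg3, Psmd5 and Psmd10, had log2 fold changes between 0.03 and 0.16. The inhibitor Psmf1, which binds the core in place of the regulatory particle, stood at 12.9, 8.59 and 11.1 TPM in WT and 9.19, 8.05 and 10 TPM in MecomWT:R751W. Its log2 fold change was -0.22 (SE 0.17) and -0.10 without WT replicate 1.

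Some proteasome genes have processed copies elsewhere in the genome whose sequence is nearly the same, and their rows share reads that cannot be placed with certainty. A search of GENCODE transcripts found copies of at least 95% identity over at least 50% of the coding sequence, among the rows of the table, for 9 of the 47 genes. These were Psma3, Psma4, Psma5, Psmb3, Psmb5, Psmc1, Psmd2, Psmd11 and Psme2. No source used here gives how reads that match several places were counted, so the levels of these rows are uncertain. Stretches of coding sequence from 3 of them are shown beside the copy, because they show how little there is within them to tell the rows apart. Capitals mark the bases that differ.
Psma3, coding bases 104 to 163: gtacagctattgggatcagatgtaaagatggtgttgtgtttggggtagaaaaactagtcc
Gm13835, the copy: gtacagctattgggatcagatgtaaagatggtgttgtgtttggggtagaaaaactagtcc
Psme2, coding bases 484 to 543: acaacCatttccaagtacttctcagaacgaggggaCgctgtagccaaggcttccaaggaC
Psme2b, the copy: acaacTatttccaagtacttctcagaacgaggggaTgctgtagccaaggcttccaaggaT
Psmb5, coding bases 263 to 322: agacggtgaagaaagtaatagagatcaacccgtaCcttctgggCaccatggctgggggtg
Gm3375, the copy: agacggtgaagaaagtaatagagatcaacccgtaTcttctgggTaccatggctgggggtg

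Psma3 and Gm13835 were identical over all 662 aligned coding positions. Psma3 has 765 coding bases and a principal transcript of 2846 bp, so parts of it lie outside this alignment. Psme2 and Psme2b matched at 712 of 717 (99.3%), and the stretch holds C489T, C519T and C543T. Psmb5 and Gm3375 matched at 784 of 793 (98.9%), and the stretch holds C297T and C306T. Each change gives the base of the proteasome gene, the position counted from 1 at the first coding base, and the base of the copy.

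The copy rows held much of the signal. Gm13835 stood at 123, 94.0 and 99.2 TPM in WT and 111, 98.3 and 110 TPM in MecomWT:R751W, far above the 8.01 to 11.8 TPM of Psma3 itself. Together with Gm5406 and Gm4742, further copies, the Psma3 family summed to 137 ± 18.0 TPM in WT libraries and 138 ± 8.08 TPM in MecomWT:R751W libraries (SD, n = 3 each), of which Psma3 was 7.29%. The log2 ratio of these means was 0.02, beside -0.35 for the Psma3 row, while Gm5406 and Gm4742 had log2 fold changes of 0.18 (SE 0.15) and 0.34 (SE 0.19). The 7.29% is a share of TPM and not of reads, and the length implied for Psma3 was 2915 bp. The summed level of Psmb5 and Gm3375 was 21.7 ± 3.02 TPM in WT libraries and 19.6 ± 3.89 TPM in MecomWT:R751W libraries (SD, n = 3 each), a log2 ratio of -0.15, beside -0.34 for the Psmb5 row. Psme2 and Psme2b summed to 30.3 ± 3.06 and 31.4 ± 1.08 TPM (SD, n = 3 each), of which Psme2 was 46.2%, so the sum also stood well below Psme1.

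The same held for other members with copies. Psma5 took 12.9% of the sum with Gm12989 and Psma5-ps, Psmd11 39.7% with Gm14048 and A730017L22Rik, and Psma4 44.3% with Gm6542. For Psmb3, Psmc1 and Psmd2 the shares were 71.0%, 72.9% and 75.7%. The log2 ratios of the summed means ranged from -0.05 to 0.06 in these 6 families. In the constitutive core, the 5 genes with copies had means of 9 to 66 TPM with a median of 12.7 TPM, and the 9 without had 25 to 86.3 TPM with a median of 53.4 TPM. The core holds its subunits in equal numbers, except that Psmb5, Psmb6 and Psmb7 share their places with the immunoproteasome subunits. Whether the copies account for the difference in level was not tested.

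**Figure D4:**
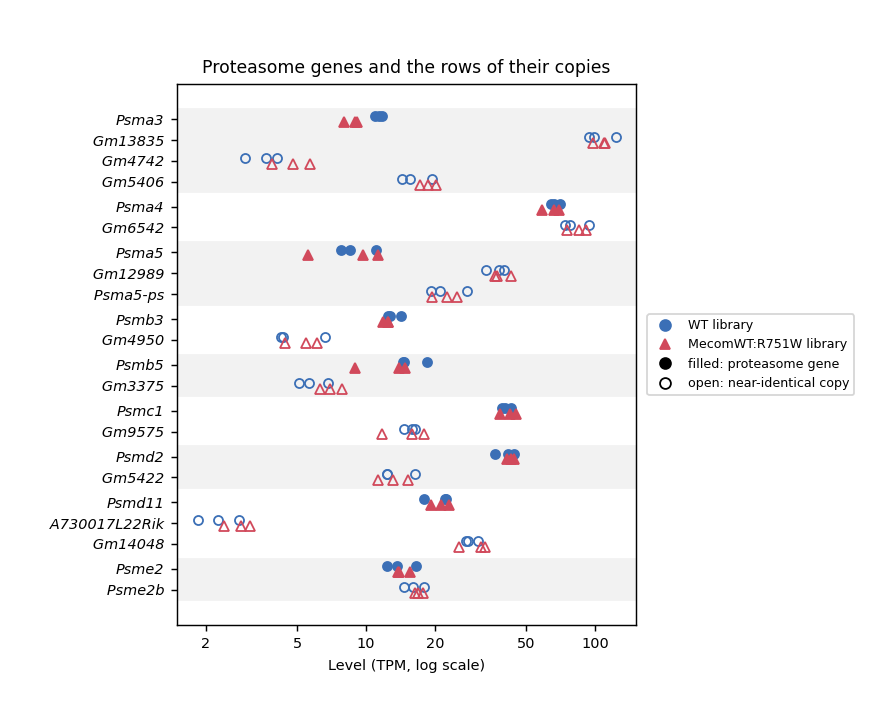
Level (TPM, log axis) of the 9 proteasome genes with near-identical copies (filled symbols) and of the rows of those copies (open symbols) in the WT (circles) and MecomWT:R751W (triangles) libraries. Gm13835 lies far to the right of Psma3, and Psma5 lies left of both of its copies.

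Across libraries, replicate 2 of each genotype stood apart. WT replicate 2 was the lowest of the 3 WT libraries for 34 of the 47 genes (72.3%), beside 69.4% of protein-coding genes. MecomWT:R751W replicate 2 was the lowest of its group for 25 of the 47 (53.2%), beside 71.7% of protein-coding genes. As a share of protein-coding TPM, MecomWT:R751W replicate 2 was the highest of its group for 29 of the 47 genes (61.7%), beside 24.9%. The difference between these shares was not tested. Over the 6 libraries the mean pairwise correlation of log2 levels was 0.29 among the 47 genes and 0.28 among 11389 protein-coding genes. It was 0.50 among the 17 genes of base and lid, 0.33 among the 14 constitutive core genes and 0.28 among the 3 immunoproteasome genes. As a share of protein-coding TPM the values were 0.09 for the 47 genes and 0.02 for protein-coding genes, and 0.15, 0.14 and 0.06 for the classes. These libraries share the level of protein-coding RNA, so the correlations are descriptions. For 32 of the 47 genes the spread within genotypes was at least 2 times the counting error of the implied reads, and for 15 it was less.

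Genes that act on the proteasome were read from the same fit. Of 16 genes for the transcription control of proteasome genes, 0 passed the adjusted threshold, 3 were lower at an unadjusted p under 0.05 (3.23% of all genes tested were) and 3 in all had log2 fold changes above 0 (49% of all genes), with a median of -0.07. Leaving out MecomWT:R751W replicate 2 put 8 of the 16 above 0 (61.7% of all genes), and leaving out WT replicate 1 put 7 there (58% of all genes). Nfe2l1, the main activator, stood at 22.6, 20.9 and 23.6 TPM in WT and 19.2, 15.5 and 21.9 TPM in MecomWT:R751W. Its log2 fold change was -0.24 (SE 0.15, limma adjusted p = 0.968), and -0.12 without MecomWT:R751W replicate 2. Nfe2l3, its less studied relative, stood at 9.31, 7.07 and 6.94 TPM in WT and 3.37, 4.09 and 4.72 TPM in MecomWT:R751W, with no overlap. Its log2 fold change was -0.79 (SE 0.18, limma adjusted p = 0.279), and it lay between -0.89 and -0.67 when each library was left out. The small MAF partners Maff and Mafk had log2 fold changes of -0.76 (SE 0.21, adjusted p = 0.448) and -0.51 (SE 0.18, adjusted p = 0.672), each with all MecomWT:R751W libraries below all WT libraries, as for 4.70% of all genes. Mafg, the other small MAF gene, had -0.05 (SE 0.17) and overlapping groups.

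Of 19 further proteasome parts and direct partners in the table, 0 passed the adjusted threshold, 2 were lower at an unadjusted p under 0.05 (3.23% of all genes) and 7 stood above 0 (49% of all genes). The last count came to 12 without WT replicate 1 (58% of all genes) and 4 without WT replicate 2 (35.5% of all genes). Zfand2a and Zfand2b, which shuttle proteins to the proteasome, had log2 fold changes of -0.56 (SE 0.21) and -0.33 (SE 0.15). Zfand5, of the same family, had -0.23 (SE 0.15). Pomp, the maturation factor of the core, averaged 95.8 ± 17.2 TPM in WT libraries and 101 ± 1.69 TPM in MecomWT:R751W libraries (SD, n = 3 each). In the list for ubiquitin supply and the VCP segregase, 0 of 14 passed and 6 stood above 0 (2 without WT replicate 2), with log2 fold changes of -0.20 (SE 0.13) for Vcp, 0.19 (SE 0.13) for Rps27a and 0.13 (SE 0.15) for Ufd1.

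The interferon factors and peptide loading genes act upstream and downstream of the immunoproteasome, whose peptides are loaded on MHC class I. Of these 19 genes, 0 passed the adjusted threshold and 1 was lower at an unadjusted p under 0.05 (3.23% of all genes tested were). None had a log2 fold change above 0 (49% of all genes did), and the median was -0.04. That count changed with single libraries, as did the share of all genes. Leaving out WT replicate 1 put 9 above 0 (58% of all genes). Leaving out MecomWT:R751W replicate 2 put 12 there (61.7% of all genes). Irf1, an activator of the immunoproteasome genes, stood at 41.4, 38.1 and 33.6 TPM in WT and 31.1, 25.5 and 28.6 TPM in MecomWT:R751W, with no overlap, as for 4.70% of all genes. Its log2 fold change was -0.40 (SE 0.14, limma adjusted p = 0.651). The peptide transporter gene Tap2, a neighbour of Psmb8 and Psmb9, had -0.39 (SE 0.19), Irf8 -0.35 (SE 0.21) and Nlrc5, an activator of MHC class I genes, -0.14 (SE 0.14). When each library was left out, these ranged from -0.54 to -0.22, from -0.45 to -0.22 and from -0.23 to -0.08.

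Immunoproteasome genes are high in lymphoid and myeloid cells, so markers of such cells were read beside them. Of 15 T and NK cell genes, 6 were in the table. They summed to 10.5 to 11 TPM in WT and 20 to 22 TPM in MecomWT:R751W. Of these, 4 of 4 tested had log2 fold changes above 0 (49% of all genes did). At an unadjusted p under 0.05, 3 were higher (2.74% of all genes), while 0 passed the adjusted threshold. The summed difference lay mostly in 1 gene. Nkg7, a granule protein, was the highest, with means of 4.31 ± 0.432 TPM in WT libraries and 11.2 ± 1.48 TPM in MecomWT:R751W libraries (SD, n = 3 each). Its log2 fold change was 1.2 (SE 0.17, limma adjusted p = 0.086), where the smallest adjusted p of all genes tested was 0.0856. Cd4 and Thy1 had log2 fold changes of 0.78 (SE 0.26) and 0.72 (SE 0.22) and Lck 0.09 (SE 0.19), all at under 5 TPM. Klrb1c and Tcf7 had means under 1 TPM and not tested, and Tcf7 went the other way, at 1.26 ± 0.602 TPM in WT libraries and 0.653 ± 0.185 TPM in MecomWT:R751W libraries (SD, n = 3 each). The other 9, Cd3d, Cd3e and Cd3g among them, were not analysed here. Psmb8, Psmb9 and Psmb10 had log2 fold changes of -0.06, -0.11 and -0.08 in the same libraries, and the part of these cells in them was not tested. The same holds for the erythroid and sort markers that follow. Of 9 antigens that the sort selects against or that mark other lineages, 4 were in the table, with sums of 66.1 to 94.2 TPM in WT and 61.2 to 86.1 TPM in MecomWT:R751W, most of it Ptprc, which nearly all nucleated blood cells carry. Cd48, which the sort selects against, had 1.68 ± 0.598 TPM in WT libraries and 3.21 ± 0.915 TPM in MecomWT:R751W libraries (SD, n = 3 each), without overlap (log2 fold change 0.65, SE 0.23, limma adjusted p = 0.674). Of all genes tested, 4.50% were higher without overlap. Of the 4 antigens, 2 stood above 0, Cd48 and Cd4, and 2 below (49% of all genes stood above 0). The 2 below were Itgam at -0.26 (SE 0.31) and Ptprc at -0.05 (SE 0.16). Of 16 monocyte, macrophage and dendritic cell genes, 8 were in the table, with sums of 200 to 253 TPM in WT and 189 to 222 TPM in MecomWT:R751W. The sums of B and plasma cell genes (2 of 12), neutrophil genes (3 of 14), megakaryocyte genes (8 of 11) and stromal and endothelial genes (5 of 10) overlapped between the genotypes. Of 13 erythroid genes, 11 were in the table, with sums of 332 to 412 TPM in WT and 328 to 403 TPM in MecomWT:R751W that were mostly Car2. Of the 11, 9 had log2 fold changes above 0 (49% of all genes did), with a median of 0.34. At an unadjusted p under 0.05, 4 were higher (2.74% of all genes), while 0 passed the adjusted threshold. Those 4 were Car1 at 1.35 (SE 0.37), Ermap at 1.02 (SE 0.24), Rhd at 0.96 (SE 0.21) and Klf1 at 0.88 (SE 0.24), each at low levels and without overlap between the genotypes, as for 4.50% of all genes.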

How the data were processed

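RNA-seq values were analysed for 6 libraries, 3 per genotype. The authors deposited 1 table of TPM, and each column sums to 1000000. The build mm10 and the tool DESeq2 are named without a role, per the submitters' processing notes. No source used here gives the aligner, counter, strand setting or annotation, and the labels' protocols list several library kits without saying which was used. All 18465 symbols matched RefSeq genes of GRCm38.p6, and 12549 were protein-coding. Within a gene the TPM values stand in ratios of whole numbers, so whole reads could be implied for 100% of the rows (tolerance 0.001 reads). Implied lengths of 93.3% of 403 small RNA genes lay within 1 bp of RefSeq. These reads describe depth and enter alternatives only.

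Genotypes were compared on log2(TPM + 1) with limma 3.58.1 (R 4.3.3, trended variance prior), for genes of mean at least 1 TPM over the 6 libraries, with two-sided p-values adjusted by Benjamini-Hochberg over all 16655 genes. The pseudocount of 1 understates changes of low genes. The script was tested on simulated data. Copies were searched with BLAST 2.17.0 (at least 95% identity and 100 coding bases at another locus, GENCODE annotation of the same build). Tables and plots were made with matplotlib 3.10.9, pandas 2.3.3 and numpy 2.4.6 under Python 3.11.15. Alternatives changed the pseudocount, filter, scaling, trend, weights, rows and replicate block, and left out each library in turn.

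Members and gene lists were chosen with earlier results of these data known. Values in every library are given for Psmb5 to Psmb10, the Psme genes and, per class, the gene of highest mean and of smallest unadjusted p. From each partner list up to 4 genes of smallest unadjusted p are named, and Nfe2l1. The values of some genes that this rule names are left out. Psmb2, Psma8, Psmd14 and Pomp were named in addition, after values were seen. Same-numbered libraries deviated together weakly (correlations 0.14, 0.089 and 0.083), so the numbers were not taken to pair samples.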

Additional observations from a re-analysis of the deposited data

How the results depend on the processing

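The number of proteasome genes past the adjusted threshold was 0 under every alternative listed with the methods, left-out libraries included, but for the added one given next, and their median stayed within the spread between libraries (0.081 log2 units). Of 378 values, for 21 named genes under 18 alternatives each, 0 passed the threshold (smallest limma adjusted p = 0.236). Psma8 and Psmb2, named after their values were seen, are not among the 21. Psma8 had a limma adjusted p of 0.175 with protein-coding genes alone. At 2 decimals, 14 of the 378 values, in 10 genes, had the other sign, all at most 0.10 from 0 and in genes whose log2 fold change did not exceed its SE, so no direction is read from those genes. In the 6 of these genes where it did, 0 values changed sign. The changes of filter, trend, block and rows without rescaling leave each log2 fold change as it was, so only the other alternatives could change a sign. One alternative added after seeing the data gave a call: with protein-coding genes alone and leaving out 1 library in turn, 0 to 1 genes passed, the call being Psma8 without MecomWT:R751W replicate 2 (log2 fold change -0.85, SE 0.19, adjusted p = 0.0356).

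Over all genes, 0 higher and 0 lower calls became 1 and 1 with a minimum mean of 5 TPM, 0 and 1 with array weights, 40 and 92 with protein-coding genes alone, 8 and 9 with these rescaled to equal totals, and 24 and 29 with voom on implied reads. Leaving out 1 library gave 0 to 6 higher and 0 to 9 lower. The cause was not tested. The immunoproteasome share differed by -2.97 to -1.14 percentage points when 1 library was left out.

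With the replicate number as a block, 0 higher and 0 lower genes were called and 0 proteasome genes passed. Each number occurs once per genotype, so a block cannot change a log2 fold change, and the median of 0.028 could not move. With protein-coding genes alone, the replicate block gave 5 higher and 24 lower, and 0 proteasome genes. Each library deviated most like the library of its own number, a hint from the data and not from the design. Protein-coding shares of TPM in WT and MecomWT:R751W were 30.1% and 29.72%, 25.87% and 26.02%, and 28.88% and 28.89% for replicates 1, 2 and 3. The block over all genes changed the SE from 0.15 to 0.10 for Psma3, from 0.12 to 0.08 for Psmb7 and from 0.19 to 0.21 for Psmb5.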
